A study of Rattus norvegicus with 43 samples.

Results

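Transcript levels of 10 genes of TGF-beta, activin and bone morphogenetic protein (BMP) signalling were examined in the anterior pituitary gland of DES-treated rats. The genes were Tgfb1, Tgfb2, Tgfb3, Tgfbr1, Tgfbr2, Inhba, Inhbb, Fst, Bmp4 and Acvr2b. They were chosen by name, though with earlier results of these data known. A gene was measured where the annotation of the array gave 1 gene symbol for a probe set, as it did for 9 of the 10 genes and for 14218 genes in all. Tgfbr2 had no singly named probe set and is not analysed here.

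The samples were 43 male F2 rats of an intercross that started from female Copenhagen (COP) and male ACI rats, 1 array per animal. Every animal carried a subcutaneous implant with 5 mg diethylstilbestrol (DES), a synthetic estrogen, from 9 weeks of age for 12 weeks. All were sacrificed at 21 weeks of age, 4 hours after an injection of the thymidine analog bromodeoxyuridine at 50 mg/kg. The animals were picked for the 22 highest and 21 lowest pituitary weights, but no label gives the class of an animal, so they form 1 group without untreated controls and are named here by the number in their labels.

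TGF-beta, activin and BMP ligands are secreted dimers that assemble type I and type II receptor kinases, which phosphorylate Smad proteins that then act on transcription in the nucleus. In the pituitary, activin stimulates production of follicle stimulating hormone in gonadotrophs, and follistatin, the product of Fst, binds activin and blocks it. TGF-beta 1 is known to restrain lactotrophs, whereas TGF-beta 3 is known to be made by lactotrophs under estrogen and to act on folliculostellate cells, the non-endocrine supporting cells of the gland. BMP4 is known for its part in lactotroph growth. Estrogens induce lactotroph growth in rats, and this class of ligands has been studied as a local mediator of that response.

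The promoter sequences of the 3 genes on which the results turn are shown first. They are the 250 bases before the annotated start of the gene, read 5′ to 3′ on the strand of the gene, from RefSeq on build GRCr8. Tgfb3 lies on the minus strand with its window at chr6:111456947-111457196, Tgfbr1 on the plus strand at chr5:66449148-66449397 and Inhbb on the minus strand at chr13:33089374-33089623. Capitals mark matches to the motifs named after the sequences.
Tgfb3: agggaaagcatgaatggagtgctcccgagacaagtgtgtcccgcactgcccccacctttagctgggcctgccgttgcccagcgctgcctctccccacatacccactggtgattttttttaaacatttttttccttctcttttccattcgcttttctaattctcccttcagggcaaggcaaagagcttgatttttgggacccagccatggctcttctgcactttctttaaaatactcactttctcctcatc
Tgfbr1: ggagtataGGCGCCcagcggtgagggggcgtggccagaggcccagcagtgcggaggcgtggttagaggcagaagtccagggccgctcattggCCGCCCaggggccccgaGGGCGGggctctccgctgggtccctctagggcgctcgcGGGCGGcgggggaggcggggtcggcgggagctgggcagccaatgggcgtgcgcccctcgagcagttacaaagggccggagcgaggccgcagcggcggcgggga
Inhbb: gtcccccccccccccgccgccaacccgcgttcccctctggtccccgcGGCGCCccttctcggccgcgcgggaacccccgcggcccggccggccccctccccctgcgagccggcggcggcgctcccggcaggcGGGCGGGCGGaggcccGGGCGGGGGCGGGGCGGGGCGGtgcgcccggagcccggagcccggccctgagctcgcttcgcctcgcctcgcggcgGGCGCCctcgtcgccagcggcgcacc

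Promoter windows were found for 9 of the 10 genes, Fst being the one without an entry. The motifs searched on both strands were the estrogen response element half-site GGTCA, the full element (GGTCA and TGACC with 3 bases between them, so that it holds the half-site), the Smad box CAGAC, the GC-rich Smad element GGCGCC, the cyclic AMP response element TGACGTCA, the TATA box TATAAA and the GC box GGGCGG. They were present in 35.4%, 0.0239%, 42.9%, 8.69%, 1.59%, 12.9% and 30.5% of 33469 promoters of the same length. The Tgfb3 window held none of the 7 and had a GC content of 48.8%, against a median of 51.2% over all promoters. The Tgfbr1 window, with a GC content of 75.6%, held 1 GC-rich Smad element at position -242 from the gene start and 3 GC boxes. The Inhbb window, with a GC content of 86.8%, held 2 GC-rich Smad elements, at -203 and -26, and 6 GC boxes, some of which overlap. Among the other genes, Bmp4 held 2 Smad boxes, at -200 and -35, and Inhba a TATA box at -40. Neither form of the estrogen response element was found in any of the 9 windows, which says only that these letters are not there.

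The labelled tissue was checked against hormone cell genes. Prl, Drd2 and Pou1f1 of lactotrophs, Gh1 and Ghrhr of somatotrophs, and Tshb and Trhr of thyrotrophs all passed the filter on dim probe sets, a mean log2 level above 7.16. Pomc and Tbx19 of corticotrophs and melanotrophs, and Avp and Oxt of the posterior lobe, did not pass. Animal 43 had the array least like the others, with a mean r of 0.927 to them where the rest had 0.967 to 0.976. The difference between 3′ and 5′ probe sets of actin, a measure of RNA quality, was 1.97 on its log2 scale against 1.26 to 1.67 for the rest.

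Levels are given as log2(intensity + 16). Brightness is not calibrated between probe sets, so levels of different genes are not ranked here, and no order of their transcript amounts is given. Of the 9 measured genes, 5 passed the filter (Tgfb2, Tgfb3, Inhbb, Tgfbr1 and Acvr2b), as did 15521 of 31042 probe sets that were not controls. The other 4, Tgfb1, Inhba, Bmp4 and Fst, were dim.

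Among the TGF-beta ligands, Tgfb3 (probe set 1367859_at, chromosome 6) had its lowest log2 level of 8.58 in animal 43, a median of 9.36 and its highest level of 9.80 in animal 8. The mean was 9.35 ± 0.26 (SD, n = 43). The highest intensity was 2.33-fold the lowest on the scale with 16 added, and the SD ranked at the 82nd percentile among the 200 probe sets of most similar level. Tgfb2 (1387172_a_at, chromosome 13) ranged from 7.08 in animal 39 through a median of 7.70 to 8.28 in animal 42, with a mean of 7.73 ± 0.27 (SD, n = 43). A dimmer probe set of Tgfb2 (1388011_a_at) had a mean of 6.96 ± 0.64 and followed the brighter one only loosely (r = 0.340, described over 43 animals). Tgfb1 (1370082_at, chromosome 1) was dim and scattered. Its values ran from 4.45 in animal 16 through a median of 6.53 to 7.84 in animal 29, with a mean of 6.32 ± 0.90 (SD, n = 43), and its SD exceeded that of all 200 probe sets of similar level.

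Inhbb and Inhba encode the activin beta subunits B and A, whose dimers are the activins. Inhbb (1377163_at, chromosome 13) ranged from 7.82 in animal 43 through a median of 8.59 to 9.12 in animal 41, with a mean of 8.56 ± 0.33 (SD, n = 43). Animals 1, 3, 4, 16 and 43 lay at or below 7.97 and the other 38 at or above 8.20. These 5 were not taken as a separate cluster, since the information criterion improved by only 0.94 against a cut of 10. Inhba (1369012_at, chromosome 17) was dim, with values from 5.21 to 7.05, a median of 6.49 and a mean of 6.40 ± 0.46 (SD, n = 43). Fst (1372750_at, chromosome 2) was also dim, with values from 4.47 to 6.63, a median of 5.86 and a mean of 5.90 ± 0.44 (SD, n = 43). Second probe sets of Inhba and Fst had means of 5.45 ± 0.64 and 5.66 ± 0.66. They followed the brighter ones only loosely (r = 0.187 and 0.308, described over 43 animals). Bmp4 (1387232_at, chromosome 15), a BMP ligand, had values from 4.88 to 7.15, a median of 6.10 and a mean of 6.04 ± 0.51 (SD, n = 43).

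Tgfbr1 encodes the type I receptor of TGF-beta, and Acvr2b a type II receptor of activins. Tgfbr1 (1376636_at, chromosome 5) ranged from 10.91 in animal 10 through a median of 11.48 to 12.02 in animal 28, with a mean of 11.49 ± 0.27 (SD, n = 43). That SD ranked at the 89.5th percentile among the 200 probe sets of most similar level, whose median SD was 0.168. Its second probe set (1369504_at) had a mean of 7.10 ± 0.38 and hardly followed the brighter one (r = 0.175, described over 43 animals), so what is said of Tgfbr1 rests on 1 probe set. Acvr2b (1388179_at, chromosome 8) ranged from 7.48 in animal 11 through a median of 8.20 to 8.69 in animal 8, with a mean of 8.17 ± 0.26 (SD, n = 43). None of the 5 genes that passed ranked above the 90th percentile of SD among probe sets like it in level.

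**Figure D1:**
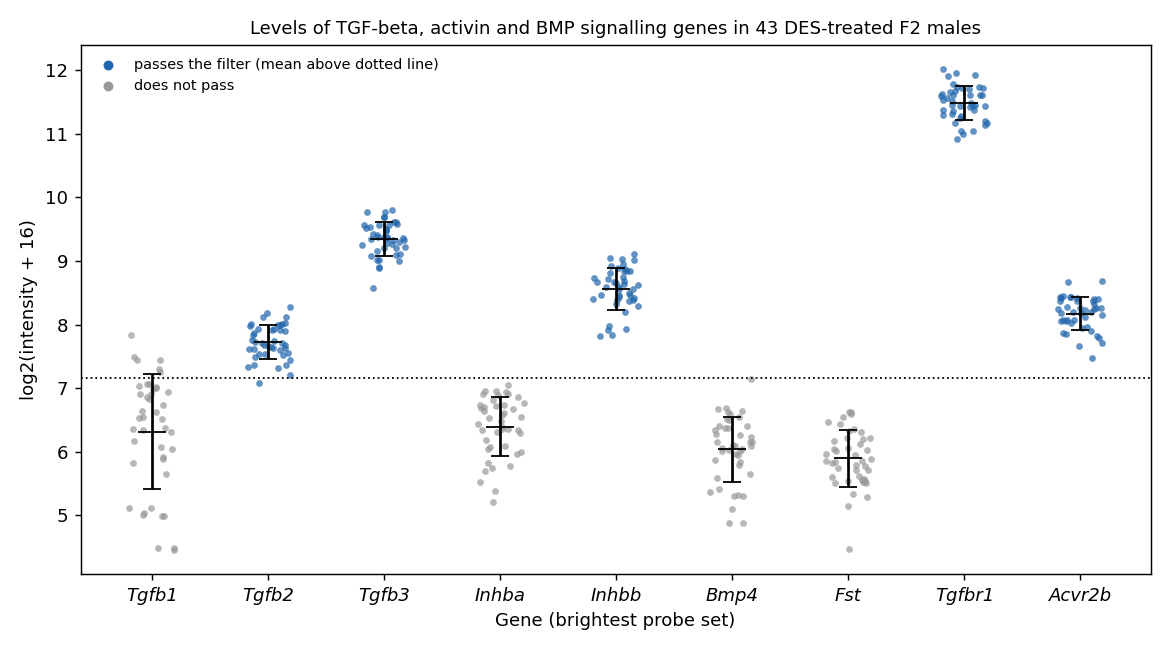
Log2(intensity + 16) for the 9 measured genes (x axis), where each point is 1 of 43 animals, the bar the mean and the whisker 1 SD. Blue genes passed the filter at 7.16 (dotted line) and grey genes did not. Tgfb1 had the widest scatter of the plotted genes, with an SD of 0.90.

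Levels in the lower and the upper range of animal numbers are described without a test because the break between animals 22 and 23 was seen in earlier results of these data and the labels give the numbers no meaning. The ranges hold 22 and 21 animals, the same counts as the highest and lowest pituitary weights. No label ties the ranges to the weights, and a link was not tested. In animals 1 to 22, Tgfb3 ran from 9.08 to 9.80 with a mean of 9.51 ± 0.19 (SD, n = 22). In animals 23 to 43 it ran from 8.58 to 9.52 with a mean of 9.18 ± 0.22 (SD, n = 21), so the ranges overlapped while most of the later animals were lower. Tgfbr1 went the other way, with means of 11.37 ± 0.25 and 11.61 ± 0.23, and so did Inhbb, with 8.42 ± 0.32 and 8.71 ± 0.28 (SD, n = 22 and 21). Animal 43 was the lowest of all animals for both Tgfb3 and Inhbb. Without it, Inhbb in animals 23 to 42 had a lowest value of 8.39 and a mean of 8.75 ± 0.20 (SD, n = 20). The means of Tgfb2 were 7.79 and 7.66, and those of Acvr2b 8.20 and 8.15.

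**Figure D2:**
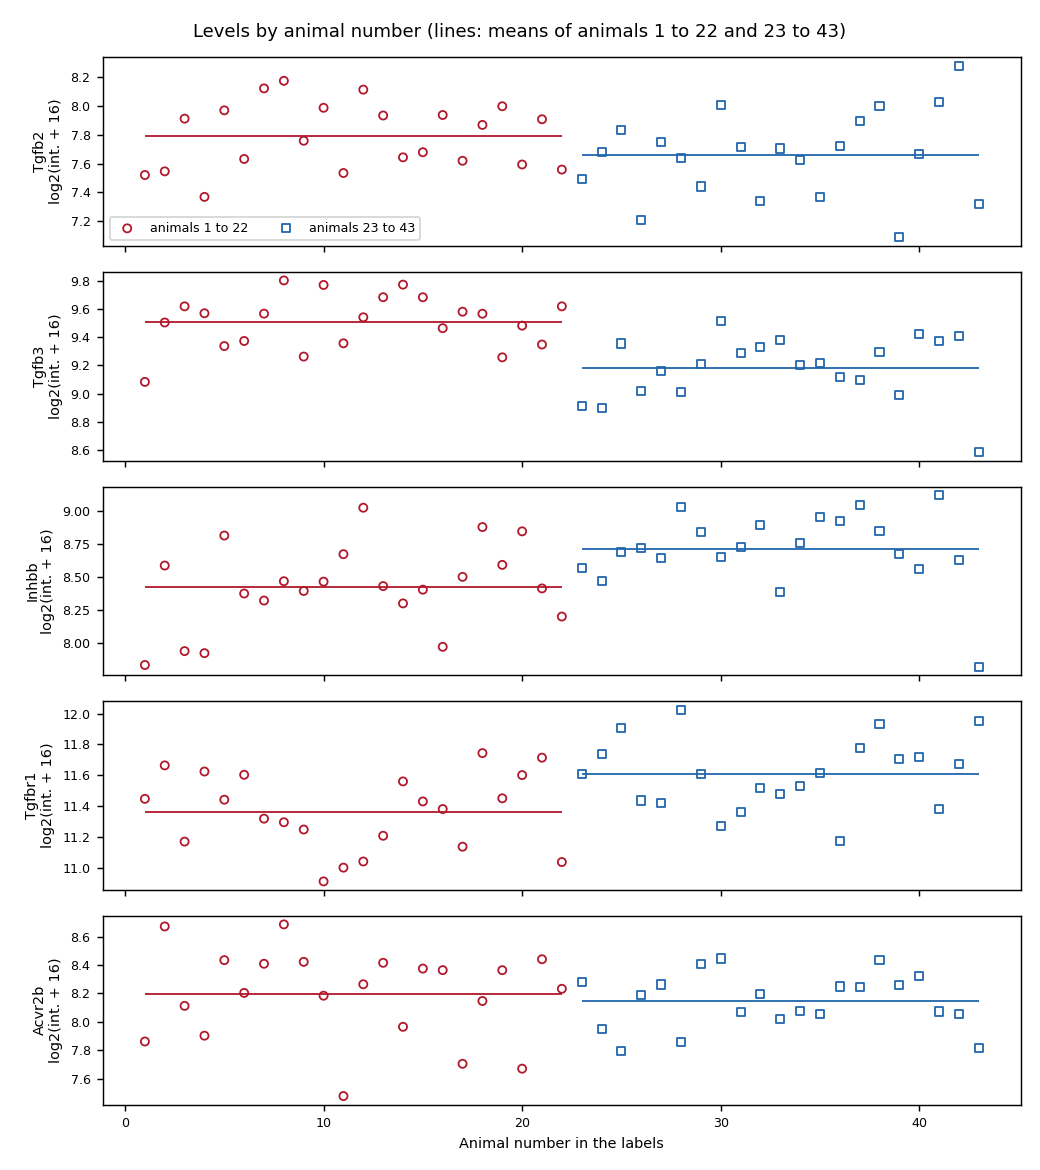
Log2(intensity + 16) of the 5 genes that passed the filter (y axis of each panel) by animal number (x axis), with the mean of animals 1 to 22 (red line) and of animals 23 to 43 (blue line). Tgfb3 had means of 9.51 and 9.18, Inhbb 8.42 and 8.71, and Tgfbr1 11.37 and 11.61.

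The question of whether these genes varied with the makeup or growth of the gland was addressed with 6 marker scores. A score is the mean of the log2 levels of its marker genes that passed the filter, after centring each gene, so it is in log2 units around 0. All probe sets that passed the filter were regressed on each score with limma, and a gene was called where its adjusted p (Benjamini-Hochberg over all probe sets tested) was under 0.05. The slope is the change in the log2 level of a gene per unit of the score. A score reads bulk RNA, in which fewer cells of a type and less RNA per cell cannot be told apart. Across 30 relations of 5 genes with 6 scores, 10 were called, all of Tgfb3, Tgfbr1 or Inhbb. The regressions on the scores used the same 43 animals, and several scores differed between animals 1 to 22 and 23 to 43.

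Tgfb3 was lower where gonadotroph markers were higher. The gonadotroph score (Lhb, Fshb, Gnrhr, Nr5a1 and Cga) ran from -0.78 to -0.11 in animals 1 to 22 and from -0.14 to 0.67 in animals 23 to 43, so that it nearly separated them. Over all animals the slope of Tgfb3 was -0.42 ± 0.066 (SE, limma adjusted p = 3.7e-06), with r = -0.709 and rho = -0.737, each with a permutation p of 1e-05, the smallest these permutations can give. Within animals 1 to 22 r was -0.401 and within animals 23 to 43 -0.403, and it was -0.725 when the 2 animals with the most extreme scores were left out. Tgfbr1 and Inhbb were called higher, with slopes of 0.23 ± 0.085 (limma adjusted p = 0.0416) and 0.39 ± 0.096 (limma adjusted p = 0.00201). The 3 of 5 genes called stood beside 25.6% of all probe sets tested, 13.0% higher and 12.5% lower. For Inhbb r was 0.527 (permutation p = 0.00031) and rho 0.592 (permutation p = 4e-05), with r of 0.403 and 0.253 within the 2 ranges of animals and 0.464 without the 2 farthest animals. For Tgfbr1 r was 0.381 (permutation p = 0.012) and rho 0.352 (permutation p = 0.0221), but within the ranges it was -0.171 and 0.0254, so that this relation did not hold within them. Its r without the 2 farthest animals was 0.382. The call of Tgfbr1 was lost without animal 43 (limma adjusted p = 0.0762) and without animal 38 (limma adjusted p = 0.0757). With a smooth trend over animal numbers in the fit, Tgfb3 was still called on the gonadotroph score (slope -0.59 ± 0.11, limma adjusted p = 0.00486), and with a single step between animals 22 and 23 it was not (limma adjusted p = 0.223). Inhbb was called on that score neither with the smooth trend (limma adjusted p = 0.470) nor with the step (limma adjusted p = 0.328), and the same held for Tgfbr1 (limma adjusted p = 0.834 and 0.901).

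Folliculostellate and stem cell markers (S100b, Sox2, Anxa1, Gfra2 and Fxyd1) went with Inhbb. The slope of Inhbb was 0.80 ± 0.15 (limma adjusted p = 0.000139), with r = 0.638 (permutation p = 2e-05) and rho = 0.690 (permutation p = 1e-05, the smallest possible). Within animals 1 to 22 r was 0.713 and within animals 23 to 43 0.141. Animal 43, which had the lowest Inhbb level and the array least like the rest, lay off the relation, and without it r was 0.784. Leaving out the 2 animals with the most extreme scores gave r = 0.612. Tgfb3 had a slope of -0.55 ± 0.13 (limma adjusted p = 0.00251), with r = -0.548 (permutation p = 0.00016) and rho = -0.542 (permutation p = 0.00027), r of -0.193 and -0.361 within the ranges and -0.489 without the 2 farthest animals. These 2 of 5 genes stood beside 16.8% of all probe sets, 8.80% higher and 8.04% lower. With the step between animals 22 and 23 in the fit, Inhbb remained called (slope 0.76 ± 0.19, limma adjusted p = 0.0316) and Tgfb3 was not (limma adjusted p = 0.511). With the smooth trend neither was (limma adjusted p = 0.134 for Inhbb and 0.166 for Tgfb3).

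**Figure D3:**
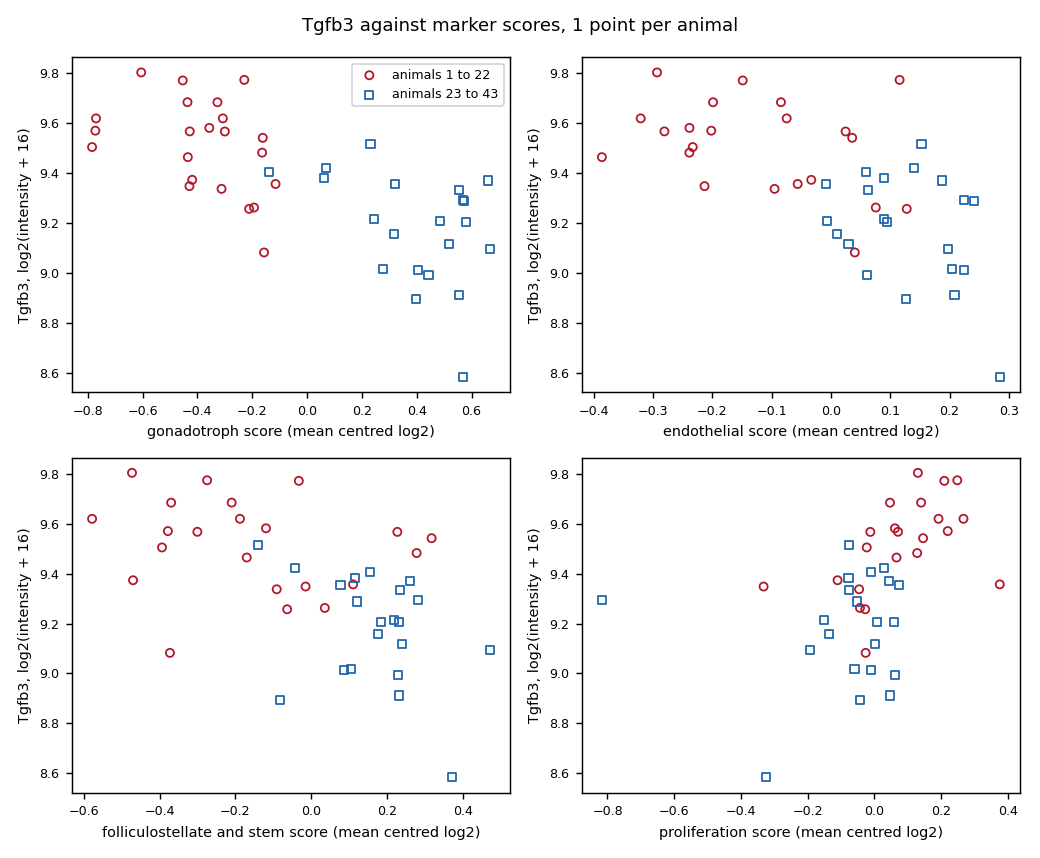
Tgfb3 level (y axes, log2(intensity + 16)) against 4 marker scores (x axes, mean centred log2 of the markers), 1 point per animal, with animals 1 to 22 as red circles and 23 to 43 as blue squares. Pearson r was -0.709 for the gonadotroph, -0.638 for the endothelial and -0.548 for the folliculostellate and stem score over 43 animals, and 0.581 for the proliferation score without animal 38, the point at the far left.

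The proliferation score averaged 32 genes of DNA replication and mitosis, among them Mki67, Top2a and Cdk1. Animal 38 stood alone with a score of -0.82, against -0.33 to 0.38 in the other 42 animals, so correlations are given over those 42. Tgfb3 was higher where the score was higher, with r = 0.581 (permutation p = 7e-05) and rho = 0.589 (permutation p = 7e-05). Without the 2 farthest of these animals r was 0.692. Tgfbr1 was lower, with r = -0.536 (permutation p = 0.00032) and rho = -0.413 (permutation p = 0.00695), and r = -0.467 without the 2 farthest. In the fit to all 43 animals the slope of Tgfb3 was 0.63 ± 0.19 (limma adjusted p = 0.0328) and that of Tgfbr1 -0.78 ± 0.18 (limma adjusted p = 0.00553). These 2 of 5 genes stood beside 8.00% of all probe sets, 4.25% higher and 3.75% lower. Over all 43 animals r was 0.453 for Tgfb3 (permutation p = 0.00282) and -0.558 for Tgfbr1 (permutation p = 9e-05). Within animals 1 to 22 r was 0.509 for Tgfb3 and -0.590 for Tgfbr1. Within animals 23 to 43, animal 38 included, r was 0.0966 and -0.341, and rho was 0.0429 and -0.0766. The call of Tgfb3 was lost without animal 43 (limma adjusted p = 0.0969) and with the 3′ to 5′ differences of actin and GAPDH as covariates (limma adjusted p = 0.0700). The call of Tgfbr1 was lost where both of its probe sets were averaged (limma adjusted p = 0.296). Neither was called with the step or the smooth trend in the fit.

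With the endothelial score (Kdr, Tek, Emcn, Esam and Plvap), 3 of 5 genes were called, beside 19.0% of all probe sets, 9.34% higher and 9.71% lower. Tgfb3 had a slope of -0.96 ± 0.18 (limma adjusted p = 0.000183), with r = -0.638 and rho = -0.633 (permutation p = 1e-05 for each, the smallest possible), r of -0.347 and -0.370 within the ranges and -0.646 without the 2 farthest animals. This call was lost with the step (limma adjusted p = 0.369), with the smooth trend (limma adjusted p = 0.149) and, by a small margin, with no filter (limma adjusted p = 0.0503). The filter had left the dim markers Pecam1, Flt1, Tie1 and Vwf out of the score, which without it averaged 9 genes, not 5. Tgfbr1 and Inhbb had slopes of 0.60 ± 0.21 (limma adjusted p = 0.0441) and 0.74 ± 0.26 (limma adjusted p = 0.0431), close to the threshold. Both of these calls were lost without animal 38 (limma adjusted p = 0.0778 and 0.0607), and that of Tgfbr1 also without animal 43 (limma adjusted p = 0.0992). For Tgfbr1 r was 0.393 (permutation p = 0.00919) and rho 0.394 (permutation p = 0.00923), with 0.0186 and 0.252 within the ranges and 0.363 without the 2 farthest animals. For Inhbb r was 0.390 (permutation p = 0.00983) and rho 0.373 (permutation p = 0.0148), but within the ranges it was 0.273 and -0.182, so that the direction did not hold in both, and it was 0.253 without the 2 farthest animals. With the fibroblast and matrix score (Col1a2, Col3a1 and Dcn) limma called 0 of 5 genes, with 2 at an unadjusted p under 0.05, beside 2.98% of all probe sets, 1.73% higher and 1.26% lower. With the macrophage and leukocyte score of 12 genes it called 0 of 5, with 0 at an unadjusted p under 0.05, beside 0.0645%, 0.0580% higher and 0.00645% lower. Tgfb2 and Acvr2b were called with none of the 6 scores, and their r with the scores lay between -0.278 and 0.0317 over all 43 animals. With both probe sets of Tgfb2 averaged, Tgfb2 was called lower on the gonadotroph (limma adjusted p = 0.00169), endothelial (limma adjusted p = 0.0220) and folliculostellate and stem (limma adjusted p = 0.0277) scores.

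Because the deposited scaling fixes the mean of each array, the direction of calls depends on it. With array medians subtracted, calls on the gonadotroph score changed from 2024 higher and 1942 lower to 1439 and 2822, and on the endothelial score from 1449 and 1506 to 1119 and 2418. On the proliferation score they changed from 658 and 581 to 1077 and 375, on the folliculostellate and stem score from 1366 and 1247 to 1002 and 1481, and on the fibroblast and matrix score from 268 and 195 to 141 and 537. In the regressions on single genes described below, they changed from 2375 and 1998 to 3420 and 1036 for Tgfb3 and from 618 and 202 to 219 and 160 for Inhbb. For Tgfbr1 they changed from 1353 and 1551 to 1296 and 1145, so that more were higher than lower. They changed from 58 and 15 to 511 and 32 for Tgfb2, and from 217 and 186 to 263 and 45 for Acvr2b. The subtraction moved the median slope of all probe sets on the endothelial score from -0.000133 to -0.11. The directions of the 10 called relations of Tgfb3, Tgfbr1 and Inhbb were the same under that scaling and under quantile normalization, though with quantile normalization Inhbb was not called on the endothelial score (limma adjusted p = 0.0868), and with array medians subtracted Tgfbr1 was not called on the gonadotroph score and neither Tgfbr1 nor Inhbb on the endothelial score.

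Within the set, Tgfb3 and its type I receptor gene Tgfbr1 moved in opposite directions. Each gene that passed served in turn as the regressor for all probe sets, and of 10 pairs, 1 was called both ways. Tgfbr1 fell by 0.51 ± 0.13 per log2 unit of Tgfb3 (limma adjusted p = 0.00398), and Tgfb3 fell by 0.50 ± 0.13 per unit of Tgfbr1 (limma adjusted p = 0.00801). Over 43 animals r was -0.505 (permutation p = 0.00051) and rho -0.461 (permutation p = 0.00196). Within animals 1 to 22 r was -0.243, within animals 23 to 43 -0.370, and without the 2 animals farthest from the median of Tgfb3 it was -0.420. The call was lost with the step (limma adjusted p = 0.188 with Tgfb3 as regressor) and with both probe sets of Tgfbr1 averaged (limma adjusted p = 0.216). In the regressions on Tgfb3 and on Tgfbr1, 28.2% (15.3% higher and 12.9% lower) and 18.7% (8.72% higher and 9.99% lower) of all probe sets were called, so that a call with either gene was common.

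Tgfb2 and Tgfb3 varied in the same direction, with r = 0.474 (permutation p = 0.00131) and rho = 0.403 (permutation p = 0.0077). Tgfb2 was called in the regression on Tgfb3 (slope 0.49 ± 0.14, limma adjusted p = 0.00751), and Tgfb3 was not in the regression on Tgfb2 (0.46 ± 0.13, limma adjusted p = 0.0651), where 0.470% of probe sets were called, 0.374% higher and 0.0966% lower. The call of Tgfb2 on Tgfb3 was lost with the step (limma adjusted p = 0.0598) and with the smooth trend (limma adjusted p = 0.0908). Within animals 1 to 22 r was 0.218 and within animals 23 to 43 0.564, and without the 2 animals farthest from the median of Tgfb2 it was 0.452. Inhbb was called with no other gene of the set, nor was Acvr2b, whose own regression called 2.60% of all probe sets (1.40% higher and 1.20% lower). Among the dim genes, Inhba and its binding partner Fst had r = 0.553 (permutation p = 0.00012) and rho = 0.507 (permutation p = 0.00061). Within animals 1 to 22 and 23 to 43 r was 0.547 and 0.561, and rho was 0.578 and 0.301. Without the 2 animals farthest from the median of Inhba r was 0.527. Each gene rests here on 1 probe set, which its second probe set followed only loosely (r = 0.187 for Inhba and 0.308 for Fst). With no filter on dim probe sets this pair was not called (limma adjusted p = 0.233 with Inhba and 0.327 with Fst as regressor). Inhba was called lower in the regression on Tgfb3 under that setting (slope -0.82 ± 0.24, limma adjusted p = 0.0178), and the reverse regression was not called (limma adjusted p = 0.335).

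**Figure D4:**
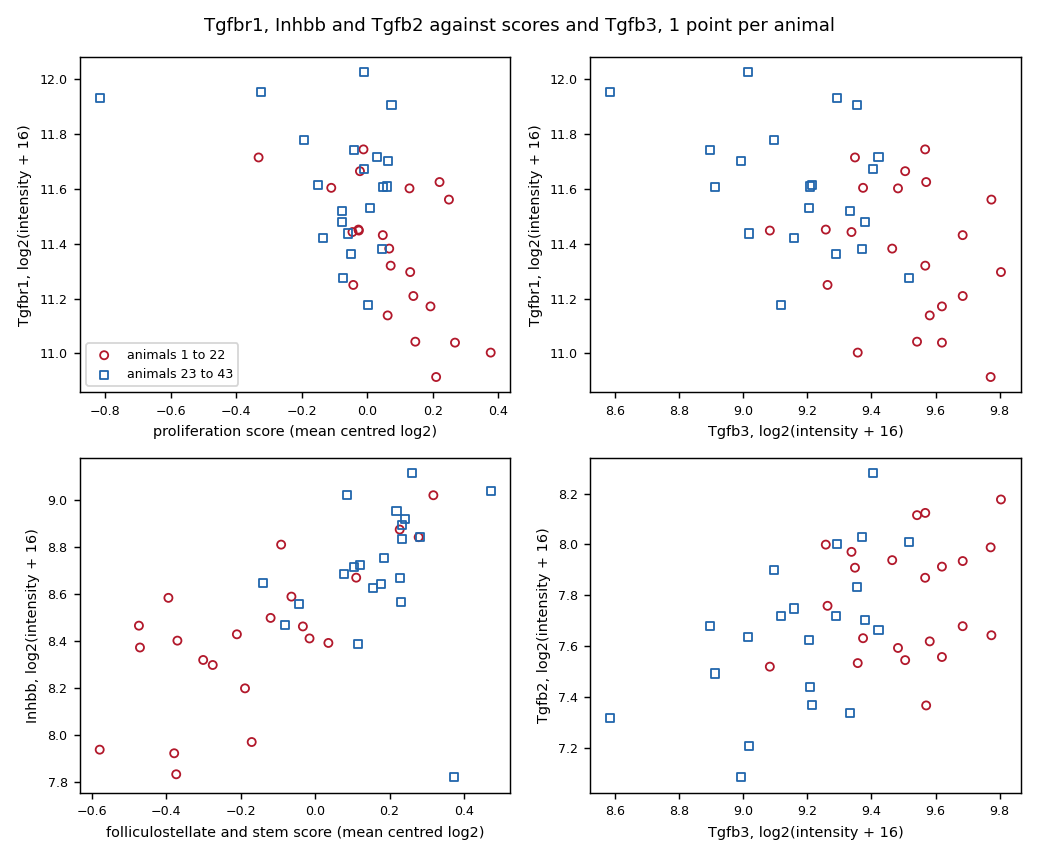
Tgfbr1 against the proliferation score and against Tgfb3 (upper panels), Inhbb against the folliculostellate and stem score and Tgfb2 against Tgfb3 (lower panels), 1 point per animal, with levels as log2(intensity + 16), scores as mean centred log2, animals 1 to 22 as red circles and 23 to 43 as blue squares. Tgfbr1 and Tgfb3 had r = -0.505, Tgfb2 and Tgfb3 0.474, and Inhbb and the folliculostellate and stem score 0.638, with animal 43 at the lower right of that panel.

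The hormone cell genes are described beside the members, using those that passed the filter. Of these 7, values of Trhr are not given, so thyrotrophs are represented by Tshb alone. The regressions on Tgfb3, Tgfbr1 and Acvr2b called 28.2%, 18.7% and 2.60% of all probe sets tested. Drd2, the dopamine receptor through which prolactin release is inhibited, was higher where Tgfb3 was higher, with a slope of 0.71 ± 0.13 (limma adjusted p = 9.78e-05). It was 0.32 ± 0.21 in animals 1 to 22 alone and 0.76 ± 0.24 in animals 23 to 43 alone (limma adjusted p = 0.812 and 0.0735). Drd2 remained called with the step (0.57 ± 0.17, limma adjusted p = 0.0365) and with the smooth trend (0.61 ± 0.16, limma adjusted p = 0.0359). Tshb encodes the beta subunit of thyrotropin, and its slope on Tgfb3 was -2.38 ± 0.37 (limma adjusted p = 1.71e-05), which was -1.65 ± 0.35 with the smooth trend (limma adjusted p = 0.0183) and -0.91 ± 0.34 with the step (limma adjusted p = 0.0943). Gh1, Ghrhr and Pou1f1 were also called lower on Tgfb3, with slopes of -0.87 ± 0.19, -0.58 ± 0.21 and -0.42 ± 0.12. Without animal 43 Gh1 was still called, but Ghrhr (-0.60, limma adjusted p = 0.0832) and Pou1f1 (-0.23, limma adjusted p = 0.206) were not. Prl was called with none of the 5 genes, and its slope on Tgfb3 was -0.18 ± 0.082 (limma adjusted p = 0.0909).

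Pou1f1, the transcription factor of lactotrophs, somatotrophs and thyrotrophs, was lower where Acvr2b was higher, with a slope of -0.50 ± 0.11 (limma adjusted p = 0.0230). The slope was -0.53 ± 0.10 in animals 1 to 22 alone (limma adjusted p = 0.0173) and -0.33 ± 0.25 in animals 23 to 43 alone (limma adjusted p = 0.736), and it remained called with the step (-0.48 ± 0.11, limma adjusted p = 0.0209). It was not called under quantile normalization (limma adjusted p = 0.0531), with the smooth trend (limma adjusted p = 0.0583) or without the filter (limma adjusted p = 0.0667). On Tgfbr1, Pou1f1 and Tshb were called higher (0.42 ± 0.12 and 1.31 ± 0.47) and Drd2 lower (-0.47 ± 0.15), but without animal 43 none of these 3 was called (limma adjusted p = 0.0597, 0.123 and 0.119), and without animal 38 Tshb was not (limma adjusted p = 0.0998). On Inhbb, Tshb was called higher (1.18 ± 0.37), and not without animal 38 (limma adjusted p = 0.0693). The regression on Inhbb called 5.28% of all probe sets, 3.98% higher and 1.30% lower.

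The 3 singly named genes most like each member are given by their Pearson r over 43 animals, as a description. For Tgfb3 they were Htr5b, a serotonin receptor (0.779), Fkbp10, a collagen chaperone (0.789), and Nsf, an ATPase of vesicle fusion (0.763), with r between 0.502 and 0.720 within either range of animals. For Inhbb they were Aldh2, a mitochondrial aldehyde dehydrogenase (0.797), Igfbp5, a binding protein of insulin-like growth factors (0.772), and Nherf1, a scaffold protein (0.769), with r between 0.672 and 0.832 within either range. For Tgfbr1 they were Anxa3, an annexin (0.737), Spin4 (0.724) and Cd302, a C-type lectin (0.716), with r between 0.520 and 0.718 within either range. Tgfb2 was most like Pip4k2b, a phosphoinositide kinase (0.654), Adgrl1, an adhesion G protein-coupled receptor (0.625), and Igsf1 (0.624). The r of these with Tgfb2 lay between 0.599 and 0.877 in animals 1 to 22 and between 0.444 and 0.613 in animals 23 to 43. Acvr2b was most like Setd1b, a histone methyltransferase (0.622), Ccdc149 (0.611) and Lrfn3 (0.618). Their r with Acvr2b lay between 0.639 and 0.783 in animals 1 to 22 and between 0.446 and 0.583 in animals 23 to 43. The order follows the moderated t of limma, not r.

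The rest of the pathway was covered by a list of 63 other genes, of which 56 had a singly named probe set and 35 passed the filter. The 35 were 4 ligands, 5 receptors, 5 Smad proteins, 8 binding proteins or antagonists, 5 intracellular inhibitors and 8 target genes. The decoy receptor Bambi was counted among the binding proteins or antagonists. Of the 35, 9 ranked above the 90th percentile of SD among the probe sets most similar to them in level. They were the receptor Bmpr2, the binding proteins or extracellular antagonists Fstl1, Nog, Chrd and Sostdc1, the decoy receptor Bambi, and the BMP target genes Id1, Id2 and Id3. Chrd, the BMP antagonist chordin, had a mean of 8.37 ± 0.38 and Nog, the BMP antagonist noggin, of 10.02 ± 0.32 (SD, n = 43).

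On the gonadotroph score 16 of 35 pathway genes were called, 6 higher and 10 lower, beside 25.6% of all probe sets. The median slope of the 35 was -0.046, and that of all probe sets 0.0052. Chrd had a slope of -0.62 ± 0.088 (limma adjusted p = 5.87e-07) and Tgfbi, an extracellular protein induced by TGF-beta, of -0.46 ± 0.082 (limma adjusted p = 3.21e-05). Of the 4 ligands 3 were lower, Bmp2 (-0.48 ± 0.14), Bmp6 (-0.20 ± 0.058) and Gdf11 (-0.34 ± 0.085). Of the 8 binding proteins or antagonists 4 were lower, Chrd, Fstl3, Twsg1 and Ltbp3, and none higher. Of the 5 receptors 1 was higher, the coreceptor Eng (0.31 ± 0.082). Of the 8 target genes 3 were higher, Id4 (0.35 ± 0.090), Ccn2 (0.34 ± 0.094) and the cell cycle inhibitor Cdkn1a (0.36 ± 0.081), and Tgfbi was lower. Smad3, which carries TGF-beta and activin signals, was higher (0.16 ± 0.060) and Smad1, which carries BMP signals, lower (-0.16 ± 0.047). The inhibitor Skil was higher and Pmepa1 lower.

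On the endothelial score 10 of 35 were called, with Id4, Ccn2, Cdkn1a and Eng higher and Bmp6, Gdf11, Fstl3, Chrd, Ltbp3 and Tgfbi lower, beside 19.0% of all probe sets. On the folliculostellate and stem score 9 of 35 were called, beside 16.8%, with Fstl1, Nog, Id4, Ccn2 and Cdkn1a higher and Gdf11, Chrd, Sostdc1 and Tgfbi lower. On the proliferation score 3 of 35 were called, beside 8.00%. They were Fstl3, an antagonist of activin, higher (1.00 ± 0.23, limma adjusted p = 0.00607), and Eng (-0.65 ± 0.20) and Skil (-0.43 ± 0.13) lower. On the fibroblast and matrix score Nog and Ccn2 were higher and Bmp6 lower, beside 2.98%. On the macrophage and leukocyte score limma called 0 of 35, with 3 at an unadjusted p under 0.05. With the smooth trend over animal numbers limma called none of the 35 on any score, with 2 to 10 per score at an unadjusted p under 0.05, and with the step it called only Twsg1, lower on the proliferation score (-0.41 ± 0.11, limma adjusted p = 0.0440). Few of all probe sets were called in these fits. On the gonadotroph score they were 136 higher and 108 lower of 15515 with the trend, and 74 and 18 with the step. On the folliculostellate and stem score they were 60 and 13, and 136 and 60, of 15516. On the proliferation score they were 118 and 27, and 117 and 40, of 15481. On the endothelial score they were 0 and 0, and 0 and 2, of 15516. The fibroblast and matrix score gave 2 and 1, and 5 and 6, of 15517. Without animal 43, Twsg1 and Pmepa1 were not called on the gonadotroph score, Bmp6, Fstl3 and Ltbp3 not on the endothelial score, and Eng and Skil not on the proliferation score. Without animal 38, Smad3 was not called on the gonadotroph score, Ltbp3 not on the endothelial score, and Eng and Skil not on the proliferation score. None of the called slopes of pathway genes changed direction without either animal, with array medians subtracted or with quantile normalization. The part of the scores and that of the animal numbers in these calls cannot be told apart.

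**Figure D5:**
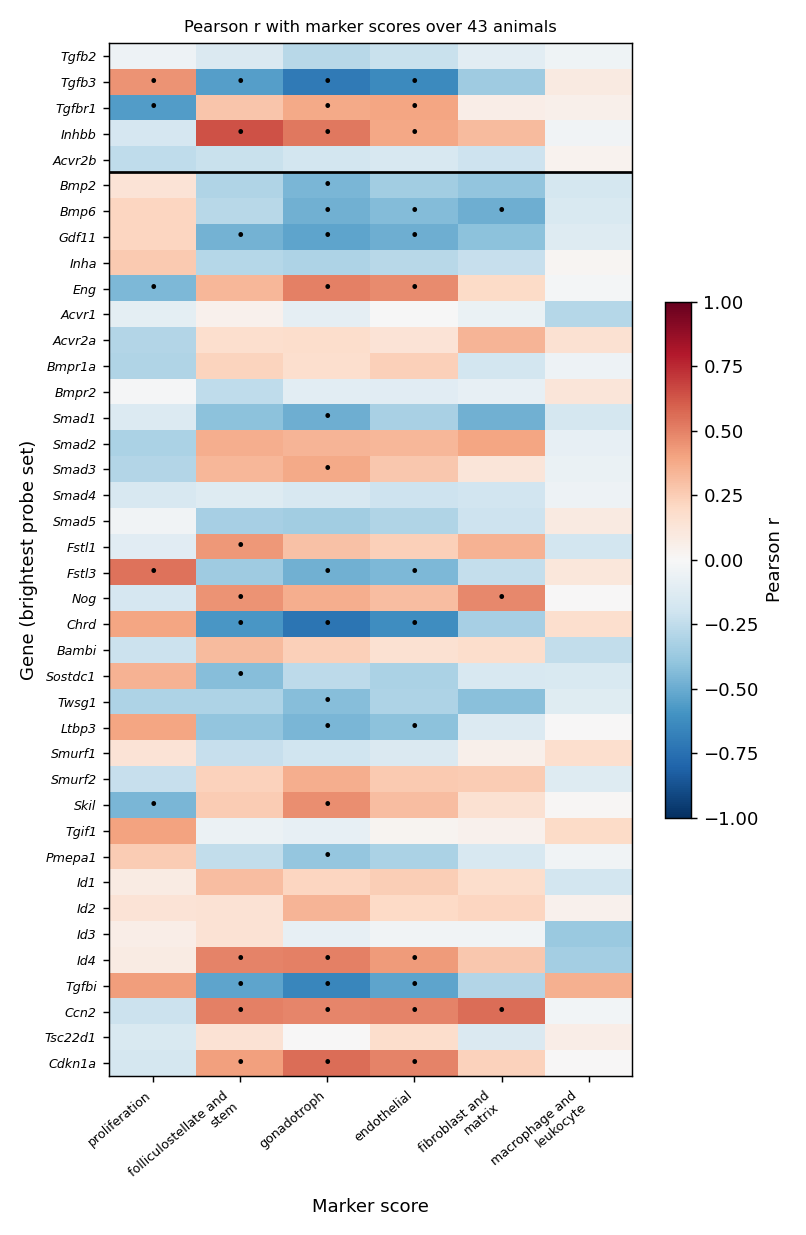
Pearson r over 43 animals (colour, from -1 in blue to 1 in red) between marker scores (columns) and genes that passed the filter (rows), with the 5 members above the line and 35 other pathway genes below it. A dot marks an adjusted p under 0.05 in the limma regression on that score, as for 16 of the 35 on the gonadotroph score and 0 on the macrophage and leukocyte score.

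In the regression on Tgfb3, 12 of 35 pathway genes were called, 8 higher and 4 lower, beside 28.2% of all probe sets, with a median slope of 0.099 against 0.024 for all probe sets. Chrd (0.91 ± 0.17, limma adjusted p = 0.000111), Tgfbi (0.77 ± 0.14, limma adjusted p = 0.000117) and Fstl3 (0.84 ± 0.16, limma adjusted p = 0.000133) were higher where Tgfb3 was higher. So were Bmp6, Gdf11, Inha, Ltbp3 and Pmepa1, the last of which is a target and inhibitor of TGF-beta signalling (0.60 ± 0.13). Ltbp3 encodes a protein that holds latent TGF-beta, and Inha the alpha subunit of inhibin. Cdkn1a (-0.51 ± 0.14), Ccn2 (-0.45 ± 0.17), Id4 (-0.43 ± 0.16) and Skil (-0.27 ± 0.099) were lower. Without animal 43, Bmp6, Gdf11, Inha, Skil and Ccn2 were not called, beside 1048 higher and 1134 lower of 15520 probe sets. With the step between animals 22 and 23 only Fstl3 and Pmepa1 were called, beside 664 higher and 247 lower of 15520. In the regression on Tgfbr1 6 of 35 were called, beside 18.7%, with Skil higher and Inha, Fstl3, Chrd, Pmepa1 and Tgfbi lower. Skil and Tgfbi were not called on Tgfbr1 without animal 38 or without animal 43, and with both probe sets of Tgfbr1 averaged none of the 35 was, with 1 at an unadjusted p under 0.05. In that averaged fit limma called none of all 11835 tested. On Inhbb 4 were called, all higher, beside 5.28%. They were Fstl1 (0.70 ± 0.14, limma adjusted p = 0.00237), Nog (0.55 ± 0.12, limma adjusted p = 0.00519), Id4 (0.43 ± 0.12) and Smurf2 (0.22 ± 0.067). Fstl1 and Nog were the 2 called with the step, beside 687 higher and 325 lower of 15520 probe sets. Smurf2 was not called without animal 38 or without animal 43. On Tgfb2 and on Acvr2b 1 of 35 was called, Pmepa1 in both, beside 0.470% and 2.60% of all probe sets, with slopes of 0.58 ± 0.13 (limma adjusted p = 0.0365) and 0.50 ± 0.14 (limma adjusted p = 0.0436). Neither was called without animal 43.

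RNA quality moved with some members. Tgfb3 and the 3′ to 5′ difference of GAPDH had r = -0.414 and rho = -0.253, given as a description, and r was -0.186 without animal 43 and -0.213 without the 2 farthest animals. Tgfbr1 and the difference of actin had r = 0.355 and rho = 0.283, with r of 0.240 without animal 43 and 0.199 without the 2 farthest animals. Inhbb and the difference of actin had r = -0.299 and rho = -0.169 over 43 animals, and r was -0.0938 without animal 43. Within animals 23 to 43, animal 43 included, Inhbb had r = -0.789 (rho = -0.616) with actin and -0.710 (rho = -0.443) with GAPDH. Within animals 1 to 22 these r were 0.0988 and 0.249. In the later range animal 43 had the lowest Inhbb level and the highest actin and GAPDH differences (1.97 and 0.453). Animals 23 to 42 reached at most 1.67 and 0.292. The r within that range without animal 43 was not computed. With both quality measures as covariates, 12 of the 13 called slopes of members on scores and on each other were still called, the exception being Tgfb3 on the proliferation score.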

How the data were processed

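The file as deposited by the authors held linear intensities, 1 value for each probe set on each of 43 arrays of anterior pituitary RNA. The trimmed mean of the deposited intensities lay between 500.17 and 500.22 on every array (2% removed at either end), so the values had been scaled. No source used here names the software that summarised the probes. The number of arrays limits the precision. No 2 arrays held identical values, and animals are separate rats.

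Of 31099 probe sets, 57 were controls. Probe sets were named from the platform annotation only where it gave 1 symbol (20832 probe sets), and 436 with several symbols were not named. Intensities had 16 added and log2 taken, and differences on this scale understate changes of dim genes. A gene was represented by its probe set with the highest mean. The filter kept probe sets whose mean log2 exceeded 7.16, the median of the non-control probe sets.

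Fits used limma 3.58.1 (lmFit, eBayes) in R 4.3.3 with a threshold of adjusted p 0.05, leaving out the genes of the score or the regressor, and were tested on simulated data. Pearson and Spearman correlations had 2-sided permutation tests (100000 permutations), with numpy 2.4.6, pandas 2.3.3 and scipy 1.17.1. Values were taken as separate clusters where a mixture of 2 normal distributions improved the Bayesian information criterion by over 10 (scikit-learn 1.9.0). Genes named are the 10 members, the pathway, marker and hormone cell lists and, for each member that passed, the 3 genes with the highest moderated t. The members, the lists and the tests were chosen with earlier results of these data known. The members were refitted under 14 alternatives, and those for pathway and hormone cell genes were added after seeing the data. Pituitary weight classes and genotypes were not used here.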

Additional observations from a re-analysis of the deposited data

How the results depend on the processing

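Of 13 slopes called for members on scores or on each other, all kept their call with a pseudocount of 1 or 64, 12 with quantile normalization, 12 with array quality as covariates, 10 each with array medians subtracted, without animal 43 and without animal 38, 8 with no filter, 7 with probe sets averaged, 4 of the 7 that could be fitted with the filter at the 75th percentile, and 1 each with a smooth trend over animal numbers, with a step between animals 22 and 23 and in animals 1 to 22 alone. None did in animals 23 to 43 alone. The cause was not tested. Slopes that turned were Tgfbr1 on the gonadotroph score with the step (-0.087, adjusted p = 0.901) and in animals 1 to 22 (-0.209, adjusted p = 0.752), and Inhbb on the endothelial score in animals 23 to 43 (-0.579, adjusted p = 0.737). Among hormone cell genes they were Ghrhr on Tgfb3 with the step (0.0242) and in animals 23 to 43 (0.105), Tshb on Tgfbr1 with the step (-0.0178) and in animals 1 to 22 (-0.415), and Tshb on Inhbb in animals 23 to 43 (-0.297).

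The filter settings changed the scores as well as the probe sets tested. With no filter the endothelial score went from 5 to 9 genes and the fibroblast and matrix score from 3 to 9. At the 75th percentile the proliferation score went from 32 to 6 and the folliculostellate and stem score from 5 to 2. Counts of the 5 members called on a score moved by over 1.5 times as follows. On the proliferation score the 2 calls became 1 with no filter, with probe sets averaged, without animal 43 and with array quality as covariates, and 0 with the filter at the 75th percentile, the trend, the step or either range of animals. On the folliculostellate and stem score the 2 became 1 with the filter at the 75th percentile, with the step and in animals 1 to 22, and 0 with the trend and in animals 23 to 43. On the gonadotroph score the 3 became 1 with the trend and 0 with the step or within either range. On the endothelial score the 3 became 1 with array medians subtracted, with the filter at the 75th percentile and without animal 38, and 0 with no filter, the trend, the step or within either range. With probe sets averaged 2 were called, Tgfb3 and Tgfb2 (adjusted p = 0.0220), and neither Tgfbr1 (0.155) nor Inhbb (0.144). Of limma's counts of 0 named here, 0 to 3 members had an unadjusted p under 0.05. Few or no probe sets of any gene were called on these scores within either range. In animals 23 to 43 alone limma called 0 on the folliculostellate and stem, gonadotroph and endothelial scores. In animals 1 to 22 alone it called 0 on the endothelial score, and 42 higher and 16 lower of 15515 on the gonadotroph score. With no filter it called 679 higher and 385 lower of 31030 on the endothelial score. The 1 pair became 2 with array medians subtracted and 0 with probe sets averaged, the trend, the step or within either range.

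Counts of pathway genes moved on the proliferation score from 3 to 7 with array medians subtracted, to 1 with no filter, the step, without animal 38 or without animal 43, and to 0 with the filter at the 75th percentile, the trend or within either range. Over all probe sets, calls higher and lower on that score were 1077 and 375 of 15481 with array medians subtracted. They were 399 and 296 of 30991 with no filter and 153 and 141 of 7754 at the 75th percentile. Of 15481, they were 319 and 308 without animal 38 and 413 and 452 without animal 43. In animals 1 to 22 they were 6 and 0, and 71 and 8 in animals 23 to 43. The pathway genes called on the endothelial score went from 10 to 5 with no filter and 4 with the filter at the 75th percentile. Those on the fibroblast and matrix score went from 3 to 1 with array quality as covariates and 0 with no filter. Over all probe sets, endothelial calls were 679 higher and 385 lower of 31030 with no filter, and 753 and 1080 of 7758 at the 75th percentile. Fibroblast and matrix calls were 142 and 94 of 15517 with array quality as covariates and 2 and 1 of 31029 with no filter. With the trend, the step and within either range, the endothelial, fibroblast and matrix, folliculostellate and stem, and gonadotroph counts of pathway genes were 0. At these counts 1 to 10 pathway genes had an unadjusted p under 0.05. In animals 1 to 22 alone, 94 higher and 39 lower of 15516 probe sets were called on the folliculostellate and stem score. On the fibroblast and matrix score limma called 0 of all probe sets within either range. In the regressions on single members, the 12 pathway genes called on Tgfb3 became 5 with the filter at the 75th percentile, 2 with the step, 1 in animals 23 to 43, and 0 with the trend and in animals 1 to 22. Over all probe sets, calls higher and lower on Tgfb3 were 1785 and 1383 of 7760 at the 75th percentile. Of 15520, they were 664 and 247 with the step, 346 and 103 in animals 23 to 43, and 234 and 127 with the trend. The 6 pathway genes on Tgfbr1 became 0 with probe sets averaged, the trend, the step or within either range. With the step, 95 higher and 97 lower of 15520 probe sets were called on Tgfbr1. The 4 pathway genes on Inhbb became 2 with quantile normalization, array medians subtracted, no filter, probe sets averaged or the step, and 0 with the trend and in animals 1 to 22. Over all 15520 probe sets, calls higher and lower on Inhbb were 276 and 132 with quantile normalization and 219 and 160 with array medians subtracted. They were 687 and 325 with the step and 12 and 2 with the trend. With no filter they were 330 and 86 of 31041, and with probe sets averaged 464 and 158 of 11835. The 1 pathway gene on Tgfb2 became 2 with array medians subtracted and the trend, and 0 with quantile normalization, no filter, without animal 43, with array quality as covariates, the step and in animals 23 to 43. Of 15520 probe sets, calls higher and lower on Tgfb2 were 511 and 32 with array medians subtracted and 380 and 217 with the trend. They were 4 and 1 with array quality as covariates, 4 and 0 with the step, and 3 and 1 of 31040 with no filter. The 1 pathway gene on Acvr2b became 0 with quantile normalization, no filter, without animal 43, with array quality as covariates, the trend and in animals 23 to 43. Of 15520 probe sets, calls higher and lower on Acvr2b were 8 and 12 with quantile normalization and 28 and 27 without animal 43. They were 187 and 186 with array quality as covariates, 14 and 13 with the trend, and 3 and 4 of 31041 with no filter. Where the count of pathway genes on a member was 0, 0 to 12 pathway genes had an unadjusted p under 0.05. Several of these counts of 0 stood beside 0 calls over all probe sets tested. These were Tgfb3 and Inhbb in animals 1 to 22, and Tgfbr1 with probe sets averaged, with the trend and within either range. They were also Tgfb2 with quantile normalization, without animal 43 and in animals 23 to 43, and Acvr2b in animals 23 to 43. The gonadotroph and fibroblast and matrix scores had fewer than 2 genes left by the filter at the 75th percentile and gave no value.

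Mean levels moved by over 1 SD for Tgfb2 with a pseudocount of 64 (8.02) and probe sets averaged (7.34), for Tgfbr1 with probe sets averaged (9.30), for Inhba with 64 (7.06) and averaged (5.92), for Fst with 1 (5.44) and 64 (6.76), and for Bmp4 with 64 (6.85). No paired analysis was possible because the animals form 1 group. Dim probe sets limit what can be said of Tgfb1, Inhba, Fst and Bmp4.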
